A study of Mus musculus with 4 samples.

Results

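The genes described here are the oncofetal RNA-binding and chromatin genes Lin28a, Lin28b, Hmga1, Hmga2, Igf2bp1, Igf2bp2, Igf2bp3, Trim71 and Arid3a, as their mRNA was measured in mouse liver cell lines. All probe sets whose platform annotation gave 1 of these symbols alone were taken. They numbered 20 and covered 7 of the 9 genes, out of 18194 genes named on the array, while Hmga1 and Igf2bp2 had no probe set named here. Resident liver stem cell (RLSC) lines were compared with MMH-D3, a differentiated hepatocytic line. The RLSC group held MetE14/3, clone B2, grown out of a liver taken 14 days post coitum and carrying the cyto-Met transgene, and WTE14/1, from a wild-type liver of the same age, with 1 array each. The labels of the wild-type sample disagree, since its title names WTE14/1, used here, and its source name WT E14/3. Cyto-Met is a truncated form of the receptor Met, and the labels do not name its promoter. MMH-D3 was measured on 2 arrays, for which the labels give no genotype or age and do not say whether separate cultures were used. Both RLSC lines had been selected for palmate colonies and expanded for about 50 generations in serum-containing medium before freezing. The primary culture medium of all lines held epidermal growth factor, insulin-like growth factor II and insulin.

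LIN28A and LIN28B are RNA-binding proteins that block the maturation of let-7 microRNAs, and let-7 in turn represses a set of growth-promoting mRNAs. HMGA2, an AT-hook protein that bends DNA, the IGF2BP proteins, which bind and stabilise mRNAs such as that of IGF2, and TRIM71, an RNA-binding ubiquitin ligase first known in worms as the let-7 target LIN-41, belong to this circuit. Many of these genes are active in the fetal liver, are silent or low in the adult organ and are active again in some liver cancers. The arrays measured mRNA and not mature let-7. The let-7 sequences are shown because the circuit turns on their shared seed, the bases 2 to 8 in capitals, by which they pair with target mRNAs.
mmu-let-7a-5p: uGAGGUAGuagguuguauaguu
mmu-let-7b-5p: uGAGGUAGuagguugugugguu
mmu-let-7d-5p: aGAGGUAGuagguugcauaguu
mmu-let-7g-5p: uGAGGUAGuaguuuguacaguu
In the RefSeq miRNA table (GRCm38.p6), 11 mature miRNAs held this seed, among them 4 whose full sequences are printed here.

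Igf2bp3 was the member with the clearest separation. Its signal was higher in both RLSC lines than on both MMH-D3 arrays at all 6 probe sets, by 1.30 to 2.02 on the log2 scale. The same separation was seen at 22.7% of all probe sets and for 20.8% of all genes tested. Igf2bp3 did not pass the test across all genes. Trim71 was near the floor on both MMH-D3 arrays, low in MetE14/3 and highest in WTE14/1. Hmga2 was strongly expressed in both groups, Igf2bp1 and Arid3a differed little or in both directions, and Lin28a and Lin28b lay below the filter on low values on all 4 arrays. Of the 4 members that could be tested at gene level, none passed limma's test at an adjusted p of 0.05. Of the 12598 genes tested 0.913% passed, 0.397% higher and 0.516% lower in RLSC. Unadjusted, 1 member, Igf2bp3, had a p under 0.05, as did 12.4% of all genes tested.

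The values are probe set signals, linear intensities scaled to 1 common level per array, and signals of different probe sets are not set against each other as levels. Percentiles only place a signal within its array. For tests the signals entered as quantile-normalized log2(signal + 4), so that differences of low genes are understated. The mean of a probe set on this log2 scale had to reach the level of a signal of about 11.7. A difference is RLSC minus MMH-D3 with its moderated standard error (SE). Of the 20 probe sets, 15 passed this filter. The spread behind each p-value is that between these 4 arrays alone, and for RLSC it holds the difference between lines. Between MMH-D3 arrays 1 and 2 the hepatocyte genes Alb (44.7 and 440) and Apoa1 (44.6 and 1951) rose, while the cyclin gene Ccna2 (3309 and 493) fell. Of all genes tested, 5.96% were at least 4-fold apart between these arrays, against 5.13% between the RLSC lines. What the MMH-D3 spread stems from, technical or not, was not tested. In bulk RNA, fewer expressing cells and less RNA per cell cannot be told apart.

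Median signals were 19.6 and 28.0 for the RLSC lines, with 16.9 and 23.1 for MMH-D3. The 24 poly-A control probe sets were higher, by a median of 10.6-fold, on MetE14/3 and MMH-D3 array 1 than on WTE14/1 and MMH-D3 array 2, so that each RLSC line has a partner MMH-D3 array with a like control level. The labels name no batches, and differences within these pairs are given for the members and for the list genes at an unadjusted p under 0.05. The 3' to 5' signal ratio of the actin control was 1.13 for both RLSC lines, with 1.13 and 1.24 for MMH-D3. The summed signal of 5 hepatocyte markers (Alb, Apoa1, Ttr, Hnf4a and Apob) was 293 for MetE14/3 and 32.6 for WTE14/1, against 4037 and 8870 for MMH-D3. Of 7 pluripotent and germ cell markers, whose summed signals ran from 47.5 to 63.5 in RLSC and from 29.6 to 43.6 in MMH-D3, 3 lay below a signal of 11.7 on all arrays. The summed signals of the haematopoietic markers ran from 85.7 to 115 in RLSC and from 57.2 to 128 in MMH-D3. Those of the mesenchymal markers were 15541 and 28260 in RLSC, with 14037 and 14240 in MMH-D3, most of it Vim, which did not pass the test. The smooth muscle genes Acta2 and Tagln in that list were higher in RLSC. Acta2 read 1638 and 8962 in RLSC, against 47.5 and 38.7 for MMH-D3, and differed by 6.20 (SE 0.80, limma adjusted p = 0.0372). Tagln read 399 and 1989 in RLSC, against 8.80 and 1.23 for MMH-D3, and differed by 6.70 (SE 0.93, limma adjusted p = 0.0402). Both RLSC arrays lay above both MMH-D3 arrays for Acta2, Tagln and Col1a2, as for Igf2bp3, while Vim and Col1a1 overlapped. Col1a1, below the filter, read 8.0 and 18.7 in RLSC, against 9.9 and 5.16 in MMH-D3. For all 5 hepatocyte markers they lay below, and Apob passed (-6.70, SE 0.85, limma adjusted p = 0.0371). Of all genes tested, 20.8% lay above and 21.4% below. The erythroid sums were 24.8 and 34 in RLSC and 38.6 and 43.2 in MMH-D3, and the endothelial sums 34 and 56.8 in RLSC and 15.2 and 64.4 in MMH-D3. No marker was at 0, and the part of these levels in the results was not tested.

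**Figure D1:**
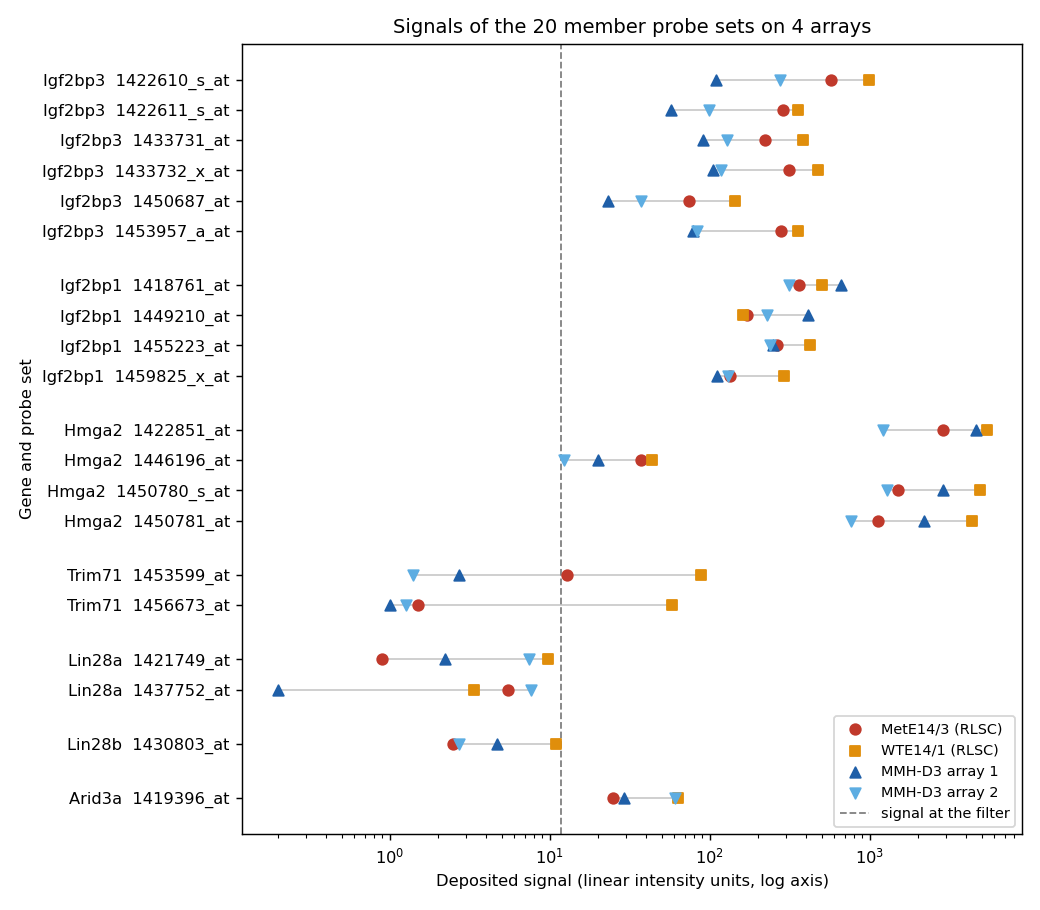
Deposited signals (linear units on a log axis) of the 20 probe sets of 7 genes, with 1 point for each array and the filter level of about 11.7 as a dashed line. At all 6 Igf2bp3 probe sets both RLSC points lie right of both MMH-D3 points, and the 3 Lin28a and Lin28b probe sets lie left of the filter level.

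Igf2bp3 encodes an mRNA-binding protein of embryonic tissues. At the probe set with the highest mean, 1422610_s_at, its signals were 574 for MetE14/3 and 986 for WTE14/1, against 109 and 274 on MMH-D3 arrays 1 and 2. Both RLSC values lay above both MMH-D3 values, with means (± SD, n = 2 per group) of 780 ± 292 for RLSC and 191 ± 117 for MMH-D3. The difference was 2.02 (SE 0.55, 95% interval 0.68 to 3.36), a 4.06-fold difference on the scale with the pseudocount. Its p from limma was 0.00984, rank 625 among the 12598 genes, and its limma adjusted p was 0.198, so it did not pass.

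The other 5 Igf2bp3 probe sets gave the same order of arrays by deposited signal. Probe set 1453957_a_at read 278 and 354 in MetE14/3 and WTE14/1, against 78.9 and 83.5 in MMH-D3. Probe set 1433732_x_at read 312 and 477 in RLSC, against 105 and 117 in MMH-D3, and 1450687_at read 74.3 and 144 against 23.2 and 36.9. At these 3 both RLSC lines lay above both MMH-D3 arrays. Probe set 1422611_s_at read 288 and 354 in RLSC, against 57.1 and 99.0 in MMH-D3. Probe set 1433731_at read 221 and 383 in RLSC, against 90.2 and 128 in MMH-D3, the smallest of the 6 differences.

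At all 6 probe sets the order of deposited signals was WTE14/1, MetE14/3, MMH-D3 array 2 and MMH-D3 array 1. After normalization the MMH-D3 arrays changed places at 1433732_x_at and 1453957_a_at. There array 2 minus array 1 was -0.15 and -0.23. When each probe set was tested by itself, the differences had SEs of 0.44 to 0.56 and unadjusted p from limma of 0.00532 to 0.0338. The adjusted p over 27022 probe sets lay between 0.177 and 0.403, so none passed, where 0.34% of probe sets were called higher and 0.392% lower. The names of 3 probe sets end in _s_at or _x_at, marks of probes that may also match other transcripts, and the remaining 3 do not. The 6 probe sets report on 1 gene in the same RNA and are not replicates. MetE14/3 exceeded MMH-D3 array 1 by 1.01 to 2.13 over them and WTE14/1 exceeded MMH-D3 array 2 by 1.59 to 2.06. The gap between the RLSC lines was larger than that between the MMH-D3 arrays at 4 of the 6. Each RLSC line had 1 array, so the lines cannot be ranked.

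**Figure D2:**
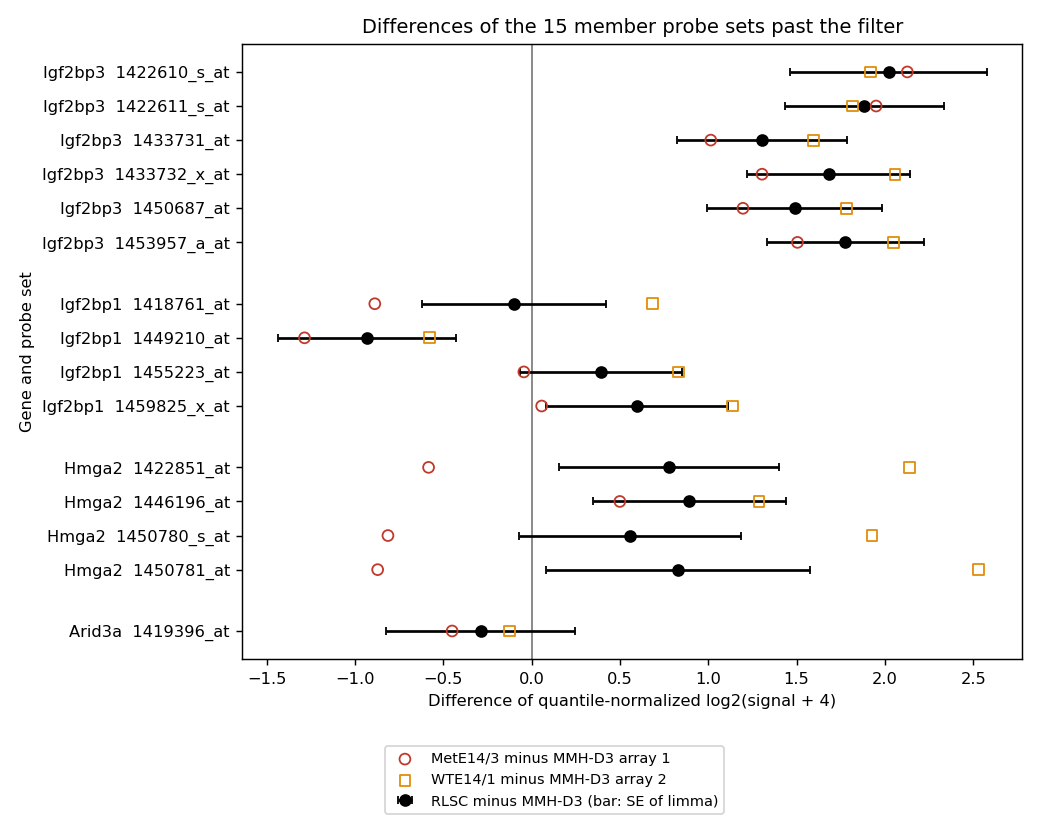
Difference of quantile-normalized log2(signal + 4), RLSC minus MMH-D3, for the 15 member probe sets past the filter (filled points, bars are limma's SE). Open points are the differences between arrays of like poly-A control level. The Igf2bp3 points lie between 1.01 and 2.13 in both pairs, while the pairs lie on opposite sides of 0 at 3 of the 4 Hmga2 probe sets.

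Igf2bp1, the paralogue that binds the Igf2, Myc and Actb mRNAs among others, did not share this pattern. At its probe set with the highest mean, 1418761_at, MetE14/3 read 360 and WTE14/1 500, against 658 and 312 for MMH-D3. The RLSC values lay between the MMH-D3 values, and the difference was -0.10 (SE 0.52, limma adjusted p = 0.972, 95% interval -1.36 to 1.15). Its 4 probe sets disagreed in direction. Probe set 1449210_at read 172 and 160 in RLSC, against 409 and 227 in MMH-D3, with a difference of -0.93. Probe set 1459825_x_at read 134 and 289 in RLSC, against 111 and 131 in MMH-D3, with a difference of 0.60. The RLSC arrays lay below both MMH-D3 arrays at the first and above both at the second. Probe set 1455223_at read 263 and 422 in RLSC, against 249 and 237 in MMH-D3, and after normalization its groups overlapped. The gene's difference was -0.89 between MetE14/3 and MMH-D3 array 1 and 0.68 between WTE14/1 and MMH-D3 array 2, and it turned to 0.13 without MetE14/3 and to 0.45 without MMH-D3 array 1. Igf2bp2, the third paralogue, was not analysed here.

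Hmga2, the chromatin protein of fetal growth and a classic let-7 target, was expressed in both groups. Probe set 1422851_at read 2858 for MetE14/3 and 5403 for WTE14/1, against 4582 and 1214 for MMH-D3, which are percentiles 97.7 and 99.0 of all probe sets in RLSC and 98.6 and 94.0 in MMH-D3. The groups overlapped, and the means (± SD, n = 2 per group) were 4130 ± 1799 for RLSC and 2898 ± 2381 for MMH-D3. The difference was 0.78 (SE 0.63, limma adjusted p = 0.729, 95% interval -0.75 to 2.30). The spread between the arrays of 1 line, -1.81 for MMH-D3 array 2 minus array 1, was larger than the group difference. Probe sets 1450780_s_at and 1450781_at gave the same order of arrays. The first read 1494 and 4915 in RLSC, against 2853 and 1284 in MMH-D3, and the second read 1133 and 4368 in RLSC, against 2198 and 759 in MMH-D3. At the dim probe set 1446196_at, by contrast, the RLSC signals of 36.9 and 43.6 lay above the MMH-D3 signals of 20.1 and 12.3, with a difference of 0.89 (SE 0.55, limma adjusted p = 0.658).

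The direction of Hmga2 depended on which arrays were set against each other. MetE14/3 minus MMH-D3 array 1 was -0.58 and WTE14/1 minus MMH-D3 array 2 was 2.14. Without MMH-D3 array 2 the difference was -0.13, without MMH-D3 array 1 it was 1.68, without MetE14/3 1.23 and without WTE14/1 0.32. None of the 4 values with an array left out passed the test, and the differences within pairs had none.

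Trim71, a stem cell RNA-binding ubiquitin ligase, read 12.8 for MetE14/3 and 87.9 for WTE14/1 at probe set 1453599_at, against 2.70 and 1.39 for MMH-D3. At 1456673_at it read 1.5 and 58.5 in RLSC, against 1.00 and 1.26 in MMH-D3. WTE14/1 stood apart at both probe sets, where its signals were at percentiles 66.1 and 61.4 of that array, while MetE14/3 was at percentiles 41.2 and 10.3. The difference between MetE14/3 and WTE14/1 was -2.12 at the first probe set and -3.19 at the second, while the MMH-D3 arrays differed by -0.50 (array 2 minus array 1) at the first. Within the array pairs the differences were 1.28 and 3.90 at the first probe set and 0.11 and 3.31 at the second. Both probe sets missed the filter, which is applied to the mean log2 value over the 4 arrays. Below a signal of 11.7 lay both MMH-D3 arrays at each probe set and MetE14/3 at 1456673_at. In the fit without a filter, an alternative to the main one, the difference at 1453599_at was 2.59 (SE 0.82, limma adjusted p = 0.344 over 18193 genes), which did not pass. With 1 array of WTE14/1, this level has no replicate check.

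Lin28a and Lin28b, the let-7 blockers, stayed at the bottom of the scale. Lin28a read 0.90 for MetE14/3 and 9.70 for WTE14/1 at probe set 1421749_at, against 2.20 and 7.44 in MMH-D3. At 1437752_at it read 5.50 and 3.36 in RLSC, against 0.20 and 7.64 in MMH-D3. Lin28b, with 1 probe set, read 2.50 and 11.0 in RLSC, against 4.70 and 2.71 in MMH-D3. The groups overlapped at all 3 probe sets, and all values lay below the filter level of about 11.7, between percentiles 0.152 and 31.2 of their arrays. No detection calls were used here, so these values do not show whether the mRNAs were absent. In the fit without a filter the differences were -0.19 (SE 0.59) for Lin28a and 0.18 (SE 0.55) for Lin28b, with limma adjusted p of 0.963 and 0.962. Within the array pairs they were -0.45 and 0.08 for Lin28a at 1421749_at, and -0.59 and 0.95 for Lin28b.

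Arid3a, a DNA-binding protein whose mRNA is a let-7 target in fetal B cell development, read 24.8 for MetE14/3 and 63.4 for WTE14/1, against 29.3 and 60.5 for MMH-D3. The groups overlapped, with MetE14/3 beside MMH-D3 array 1 and WTE14/1 beside MMH-D3 array 2. The difference was -0.29 (SE 0.57, limma adjusted p = 0.912, 95% interval -1.68 to 1.10), and 0.14 without MetE14/3. Within the array pairs it was -0.45 and -0.13. The neighbours are arrays of like poly-A control level, and the part of that level in the values was not tested.

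Over all 20 probe sets, both RLSC arrays lay above both MMH-D3 arrays at 11 and below both at 1, by deposited signal. Of these 11, 6 belonged to Igf2bp3, 2 to Trim71, 2 to Igf2bp1 and 1 to Hmga2. Probe sets of 1 gene are not independent. At Trim71 1456673_at the gap was near the floor, 1.5 for MetE14/3 against 1.00 and 1.26 for MMH-D3. At Igf2bp1 1455223_at the groups overlapped after normalization. By deposited signal, 22.7% of all 45037 probe sets lay above and 14.2% below. At gene level Igf2bp3 alone among the 4 tested members was separated, where 20.8% of all genes tested lay above and 21.4% below.

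The promoters of Igf2bp3 and Trim71, the members with both RLSC arrays above MMH-D3 at each probe set, are shown with those of Hmga2, expressed in both groups, and of Lin28a and Lin28b, below the filter in both. Each runs from 250 bases before the start to 50 after it, from RefSeq on GRCm38.p6, and is written along the gene's strand. Igf2bp1 and Arid3a had no entry. Capitals mark 4 motifs searched on both strands, the GC box GGGCGG, the CCAAT box CCAAT, the TATA box TATAAA and the E-box CACGTG, and no matches overlapped.
Igf2bp3, chr6:49214905-49215204, minus strand: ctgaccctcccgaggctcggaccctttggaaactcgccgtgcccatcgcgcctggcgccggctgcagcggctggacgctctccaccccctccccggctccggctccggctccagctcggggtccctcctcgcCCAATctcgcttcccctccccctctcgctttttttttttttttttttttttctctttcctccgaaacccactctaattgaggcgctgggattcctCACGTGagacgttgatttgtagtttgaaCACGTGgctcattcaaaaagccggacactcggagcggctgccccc
Trim71, chr9:114564320-114564619, minus strand: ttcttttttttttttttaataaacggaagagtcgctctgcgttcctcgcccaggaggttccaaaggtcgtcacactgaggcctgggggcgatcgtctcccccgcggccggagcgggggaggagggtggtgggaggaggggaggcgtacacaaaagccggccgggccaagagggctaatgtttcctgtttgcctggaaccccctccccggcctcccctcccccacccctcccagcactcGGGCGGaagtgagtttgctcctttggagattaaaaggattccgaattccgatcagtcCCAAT
Hmga2, chr10:120476420-120476719, minus strand: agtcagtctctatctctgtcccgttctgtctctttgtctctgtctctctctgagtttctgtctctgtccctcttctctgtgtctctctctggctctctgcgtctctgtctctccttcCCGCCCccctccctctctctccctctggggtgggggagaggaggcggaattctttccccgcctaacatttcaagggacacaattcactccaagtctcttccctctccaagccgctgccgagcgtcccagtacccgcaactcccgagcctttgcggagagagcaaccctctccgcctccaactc
Lin28a, chr4:134018767-134019066, minus strand: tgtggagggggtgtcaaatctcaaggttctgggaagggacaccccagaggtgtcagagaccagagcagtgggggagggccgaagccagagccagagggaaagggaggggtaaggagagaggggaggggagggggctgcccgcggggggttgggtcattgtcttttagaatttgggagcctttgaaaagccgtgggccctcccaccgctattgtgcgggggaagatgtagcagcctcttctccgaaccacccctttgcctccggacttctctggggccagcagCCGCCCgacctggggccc
Lin28b, chr10:45470152-45470451, minus strand: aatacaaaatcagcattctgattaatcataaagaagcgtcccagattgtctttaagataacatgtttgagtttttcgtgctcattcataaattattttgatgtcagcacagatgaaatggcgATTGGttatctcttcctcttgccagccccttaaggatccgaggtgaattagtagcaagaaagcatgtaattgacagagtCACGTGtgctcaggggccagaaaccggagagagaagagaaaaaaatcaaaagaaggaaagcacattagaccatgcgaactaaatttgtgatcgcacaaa
Igf2bp3 held 1 CCAAT and 2 CACGTG matches, and Lin28b 1 of each. Trim71 held 1 GGGCGG and 1 CCAAT, with CCAAT at the very end of the window, while Hmga2 and Lin28a held 1 GGGCGG each. Of 32851 promoters of this length, GGGCGG occurred in 35.7%, CCAAT in 37.4%, TATAAA in 13.6% and CACGTG in 7.15%. Igf2bp3 had a GC content of 60.3% with 25 CpG dinucleotides and Trim71 59.3% with 19. Hmga2 had 57.7% with 12, Lin28a 63.3% with 10 and Lin28b 39.0% with 8, against medians of 52.7% and 7 over all promoters.

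Between the RLSC lines, MetE14/3 had a lower signal than WTE14/1 at 18 of the 20 probe sets and a higher one at 2, where 60.3% of all probe sets were lower in MetE14/3. After quantile normalization it was lower at 17 of the 20, against 50.2% of all. The 20 probe sets report on 7 genes in the same RNA and are not independent. Among the 4 tested members the differences, MetE14/3 minus WTE14/1, were -0.91 for Hmga2, -0.87 for Arid3a, -0.84 for Igf2bp3 and -0.47 for Igf2bp1. With the median of each gene's probe sets they were -1.85 for Hmga2 and -0.34 for Igf2bp3, and single Hmga2 probe sets ran from -1.96 to 0.17. None reached 4-fold, as 5.13% of all genes tested did, 2.8% higher and 2.33% lower in MetE14/3. Between the MMH-D3 arrays 5.96% of genes were that far apart. The members' differences between MMH-D3 array 2 and array 1 were of like size, -1.81 for Hmga2, 0.54 for Arid3a, 1.05 for Igf2bp3 and -1.11 for Igf2bp1. Each line had 1 array, and the lines also differed in poly-A control level, so line and control level cannot be told apart. Without the filter 1 member, Trim71, was at least 4-fold apart.

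The members' profiles over the 4 arrays were set against those of all other genes tested, as the root mean square distance between centred log2 values. For Hmga2 the nearest were Dctd, a deoxycytidylate deaminase (0.0473), and Noct, the circadian protein nocturnin (0.107). Dctd read 354 and 624 in RLSC, against 472 and 152 in MMH-D3. For Igf2bp3 they were the zinc transporter Slc30a3 (0.140) and the membrane-linked protein Palm (0.150). Palm read 78.8 and 162 in RLSC, against 14.8 and 33.3 in MMH-D3. With 4 arrays many genes lie close to any profile. Igf2bp1 and Arid3a spanned less than 2 on the log2 scale and were not matched.

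Most other genes of the circuit did not pass the test. Over 6 lists, 66 distinct genes were considered and 55 tested, of which 1, Afp, passed limma's test as lower in RLSC. Unadjusted, 6 had a p under 0.05. Over all genes tested, 0.913% passed and 12.4% had an unadjusted p under 0.05, and neither count is read as a result about these lists.

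Genes of let-7 biogenesis and turnover, from Drosha to the uridylyltransferase Tut4 and the exonuclease Dis3l2, were all 16 tested, and none passed in either direction or at an unadjusted p under 0.05 with limma. Their median difference was 0.01, against 0.03 over all genes tested, and their range was -0.89 to 1.04. The helicase Ddx5 read 3980 and 4555 in RLSC, against 4037 and 4873 for MMH-D3, and differed by 0.01 (SE 0.27). Its relative Ddx17 differed by 0.30 (SE 0.38). RLSC arrays lay above both MMH-D3 arrays for 2 of the 16 and below both for 2, against 20.8% and 21.4% of all genes tested.

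Of 19 let-7 target genes other than the members, 16 were tested and none passed, with 2 at an unadjusted p under 0.05 with limma. Their median was 0.01. The ribonucleotide reductase subunit Rrm2 differed by 0.98 (SE 0.70) and cyclin D2 (Ccnd2) by 0.24 (SE 0.46), with overlapping groups. The genes at an unadjusted p under 0.05 were Igf1r and Mycn, named after their values were seen. The receptor Igf1r read 502 and 1021 in RLSC, against 226 and 148 for MMH-D3, which is a difference of 1.94 (SE 0.55, limma adjusted p = 0.211) with all 5 probe sets past the filter on this side and 1.01 and 2.86 within the array pairs. The transcription factor Mycn read 0.70 and 8.85 in RLSC, against 31.2 and 86.0 for MMH-D3, and differed by -3.09 (SE 0.70, limma adjusted p = 0.131), with 2 of its 3 probe sets on this side and -3.22 and -2.97 within the pairs. Igf1r thus lay above and Mycn below both MMH-D3 arrays, and both RLSC signals of Mycn were under the filter level. Of the 16 tested, RLSC arrays lay above both MMH-D3 arrays for 1, Igf1r, and below both for 5, Mycn among them. Among all genes tested, the shares above and below were 20.8% and 21.4%.

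Of 11 mRNAs known as IGF2BP clients, 7 were tested and none passed or had an unadjusted p under 0.05 with limma, with a median of -0.02. Actin (Actb) differed by -0.02 (SE 0.18) and the poly(A)-binding protein gene Pabpc1 by 0.07 (SE 0.20). Igf2, the growth factor mRNA after which the family is named and which was singled out after its values were seen, read 33.3 and 86.0 in RLSC, against 4.6 and 25.3 in MMH-D3. Both RLSC arrays lay above both MMH-D3 arrays, and the difference was 1.73 (SE 0.72, limma adjusted p = 0.410), with 1.97 and 1.49 within the array pairs.

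Among 4 tested paralogues of Arid3a and Trim71 none passed or had an unadjusted p under 0.05 with limma, and the median was 0.32. Trim2 differed by -0.51 (SE 0.61) and Trim3 by 0.09 (SE 0.43). Of 12 other oncofetal and fetal liver genes 8 were tested, 1 was lower, none higher, 2 had an unadjusted p under 0.05, and the median was 0.07. Alpha-fetoprotein (Afp), the classic oncofetal protein of liver, read 75.8 and 134 in RLSC, against 1457 and 923 in MMH-D3. It lay on the other side from Igf2bp3, at -3.50 (SE 0.47, limma adjusted p = 0.0391), with 3 of its 4 probe sets past the filter on this side. The call did not hold when any of the 4 arrays was left out, with adjusted p from 0.0869 to 0.238. Within the array pairs its differences were -4.11 and -2.89. Epcam, an epithelial adhesion gene named after its values were seen, read 39.0 and 8.56 in RLSC, against 121 and 453 for MMH-D3. Both RLSC arrays lay below both MMH-D3 arrays, and the difference was -3.55 (SE 0.88, limma adjusted p = 0.162), with -1.70 and -5.40 within the pairs. Cldn6, also named after its values were seen, had the largest positive difference of this list, 3.17 (SE 2.12, limma adjusted p = 0.651). It read 1.40 for MetE14/3 and 807 for WTE14/1, against 2.50 and 4.10 for MMH-D3. The groups overlapped, and its difference rested on the WTE14/1 array alone.

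Of 7 cell cycle genes tied to members in the literature of other tissues, all 7 were tested and none passed, with 2 at an unadjusted p under 0.05 with limma and a median of -0.15. The cell cycle inhibitor Cdkn1a, an mRNA that TRIM71 represses in embryonic stem cells, differed by -0.47 (SE 0.35), and Ccna2, encoding cyclin A2, by 0.86 (SE 0.81). The genes at an unadjusted p under 0.05, Cdkn2a and Cdkn2b, are neighbouring inhibitor genes named after their values were seen. HMGA2 is known to keep Cdkn2a low in neural stem cells of mouse. A link to Hmga2, whose groups overlapped at gene level, was not tested here. Cdkn2b read 14.4 and 5.23 in RLSC, against 121 and 188 for MMH-D3, and differed by -3.68 (SE 0.63, limma adjusted p = 0.0648). Cdkn2a read 4.50 and 14.8 in RLSC, against 46.8 and 75.7 for MMH-D3, and differed by -2.56 (SE 0.58, limma adjusted p = 0.132). At both genes the RLSC arrays lay below both MMH-D3 arrays. Their differences within the array pairs were -2.84 and -4.52 for Cdkn2b and -2.85 and -2.28 for Cdkn2a. Over 15 settings, among them the array pairs, which have no test, the difference of Cdkn2b ran from -4.52 to -2.79. In none of these that kept all 4 arrays did it pass.

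**Figure D3:**
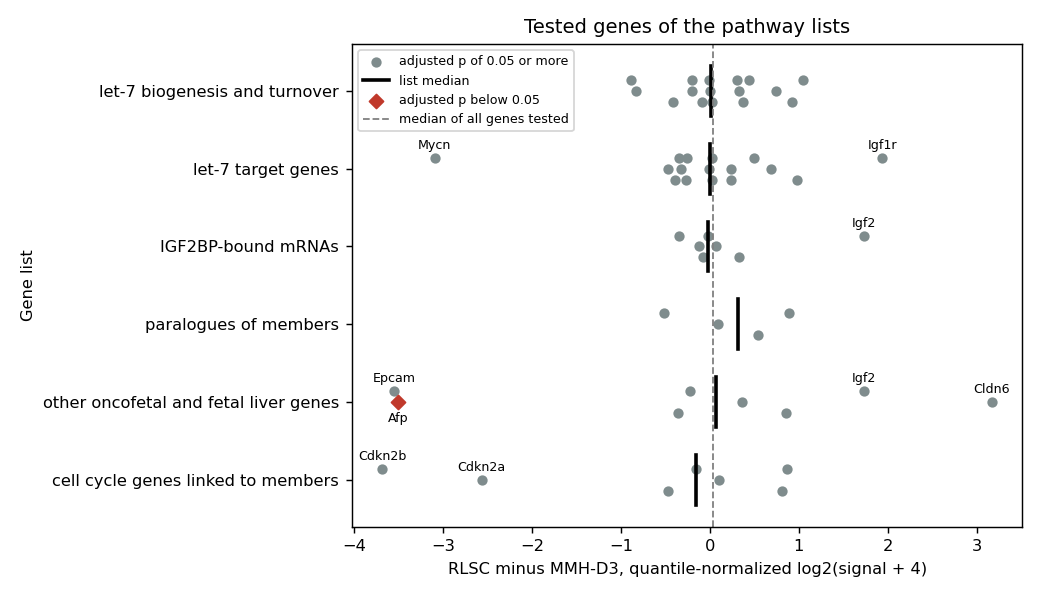
Difference of each tested gene of the 6 lists, RLSC minus MMH-D3 on the log2(signal + 4) scale, with list medians as black bars and the median of all genes tested as a dashed line. Medians lie between -0.15 and 0.32, and Afp, at -3.50, is the gene past the test.

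**Figure D4:**
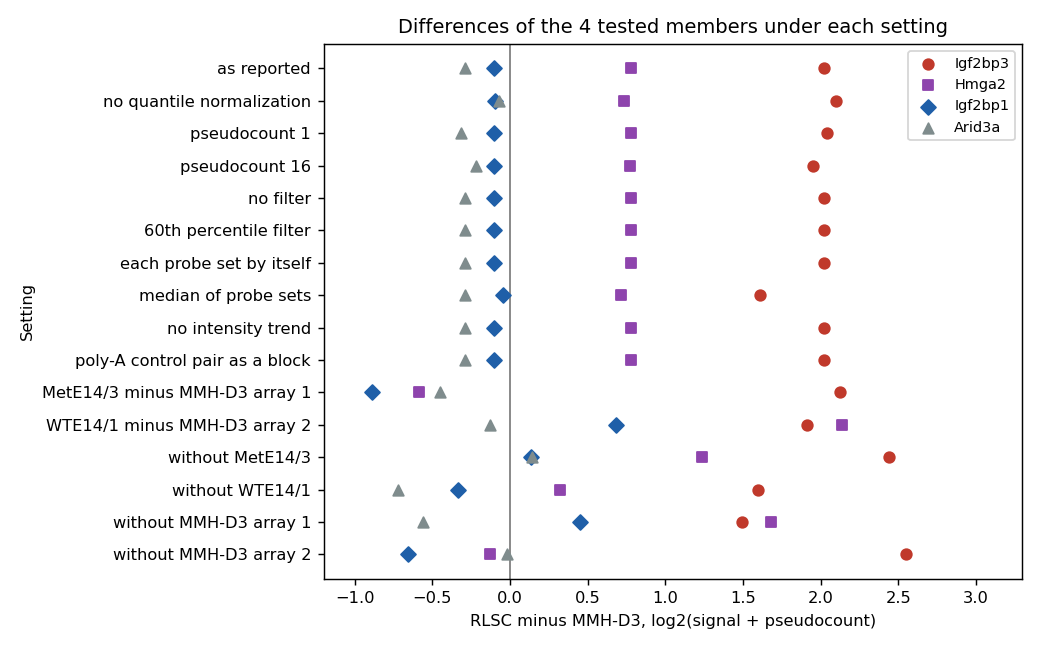
Differences of the 4 tested members, RLSC minus MMH-D3 on a log2 scale, under each setting from the reported one down to leaving out each array. Igf2bp3 stays between 1.49 and 2.55, while Hmga2, Igf2bp1 and Arid3a each have points on both sides of 0. The groups do not overlap for Igf2bp3, so leaving out or pairing arrays could not turn its sign.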

How the data were processed

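RNA of 4 samples, 5 μg each, was measured on Affymetrix Mouse430_2 arrays, per the labels. The authors deposited 1 linear intensity per probe set and array, computed in GCOS according to the submitters' processing notes. Its version is not given in the sources used here. The mean signal without the extreme values was 200.001 on each array, so 1 scaling factor per array appears to have been used. The number of arrays limits the precision.

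Of 45101 probe sets, 64 controls were left out. The platform annotation gave 34958 probe sets 1 symbol. Array medians of log2(signal + 4) differed by 0.61, and values were quantile normalized. Probe sets below the 40th percentile of the mean were removed, and the probe set with the highest mean stood for a gene. The test of RLSC against MMH-D3 used limma 3.58.1 under R 4.3.3 (lmFit, eBayes with intensity trend, two-sided, Benjamini-Hochberg over all 12598 genes at 0.05, 2 residual and 4.24 prior degrees of freedom). The fit was checked on simulated data with differences larger than those of the members, which does not cover differences of their size. The RLSC lines, with 1 array each, were compared by the size of their difference.

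Named were all members, of each list those past the test (at most 4) or else the 2 with the highest mean, and the 2 nearest profiles of members spanning over 2 on the log2 scale. The members and lists were chosen with earlier results of these data known. Alternatives covered normalization, pseudocount, filter, probe set summary, variance trend, poly-A control pairs and leaving out each array.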

Additional observations from a re-analysis of the deposited data

How the results depend on the processing

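No member passed the test under any of the 13 alternatives with a test, against 0 as reported. Igf2bp3 kept its sign in all 15 alternatives, with differences of 1.49 to 2.55. Its lowest limma adjusted p was 0.103, with the poly-A control pair as a block. Both its RLSC values lay above both MMH-D3 values, so leaving out or pairing arrays could not turn its sign. Several other settings left its difference at 2.02, so the kept sign is no separate support. The other tested members, whose groups overlapped, turned in sign in some alternatives. Arid3a was 0.14 without MetE14/3 (-0.72 to 0.14 when 1 array was left out). Hmga2 was -0.58 within the pair of MetE14/3 and MMH-D3 array 1 and -0.13 without MMH-D3 array 2 (-0.13 to 1.68). Igf2bp1 was 0.68 within the pair of WTE14/1 and MMH-D3 array 2, 0.13 without MetE14/3 and 0.45 without MMH-D3 array 1 (-0.65 to 0.45). These alternatives use fewer arrays; the cause was not tested. The 1 list gene called became 0 without the filter and 0 without the intensity trend, and 0 to 2 when 1 array was left out (2, Cdkn2b and Cldn6, without MetE14/3). The 115 genes called in all became 9 without the filter, which adds genes near the floor, and 0 to 198 when 1 array was left out: 198 without MetE14/3, 13 without WTE14/1 and 0 without either MMH-D3 array. Members at least 4-fold apart between the RLSC lines numbered 0 as reported and 1 without the filter. A limma fit over 3 lines was also run, but with 1 array per RLSC line and the spread of the MMH-D3 pair alone it says nothing about the lines. No paired analysis was possible by replicate number because the labels number the MMH-D3 arrays only. With the poly-A control pair, read from the data, as a block, 164 genes were called and no member among them. Near the floor, as for Trim71, Lin28a and Lin28b, differences depend on the pseudocount.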
